A study of Mus musculus with 48 samples.

Results

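The dentate gyrus on the side of a kainate injection was compared between day 14 and day 7 after the injection. The libraries compared, taken by their labels, are the ipsilateral ones of kainate-treated mice at day 14 (mice 27, 36, 14 and 40) and at day 7 (mice 23, 26, 21 and 35), which are 8 of the 48 libraries of the series. All mice were wild-type C57BL/6J, 2 male and 2 female in each group of 4, and the sex of a single mouse was not given. The sample records give an age of 6 to 8 weeks and the methods 8 to 10 weeks. Kainate or saline was injected into the hippocampus of one side, and the dorsal dentate gyrus of both sides was dissected at day 3, 7 or 14, with the hilus included. The injected side is called the epileptogenic zone (EZ) and the other side of the same mouse the peri-ictal zone (PIZ). Saline-injected mice of the same days, 4 in each group, served as background. Each day is a different set of mice, so a difference between days is a difference between animals, and kainate mice entered the study only if a seizure that passed a behavioural score was seen after the injection. The libraries are bulk tissue, in which fewer cells of a type and less RNA per cell cannot be told apart.

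Kainate is an agonist of glutamate receptors that sets off prolonged seizures (status epilepticus). In this model hilar, CA1 and CA3 neurons of the injected side die, granule cells disperse, microglia and astrocytes become reactive and proliferate, and spontaneous seizures follow after a latent period.

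The 8 libraries held between 17762656 and 24817764 counts, and total counts, scaling factors, the mitochondrial share and the share of the 20 most abundant genes did not differ between the days beyond their spread (exact 2-sided permutation p between 0.2 and 0.714, where 4 mice against 4 cannot go below 0.0286). The granule cell marker Prox1 was abundant in all 8 libraries, at 6.39 to 8.30 log2 CPM (CPM, the count scaled to library size, with a prior count of 2). The mean of 12 mature granule cell genes, Prox1 among them, was also set against saline mice of the same day. On the log2 scale it was -2.48, -2.16 and -1.92 in mice 21, 35 and 27. In mice 23, 26, 36, 14 and 40 it was -0.32, -0.24, -0.45, -0.88 and -0.01. Prox1 alone thus does not show that granule cell content was alike in the 8 libraries. Mouse 27 stood apart from the other mice of day 14. On the first principal component of the EZ libraries, which held 70.9% of the variance, day 7 mice 23, 26, 21 and 35 lay at -48.6, -74.5, -150.4 and -149.4, and day 14 mice 36, 14 and 40 lay at 43.7, 39.1 and 21.4 beside saline values of 48.5 to 62.1. Mouse 27, of day 14, lay at -109.4, among the mice of day 7. Its level was inside the range of the 4 day 7 mice for 14314 of the 21390 genes tested and inside that of the other 3 day 14 mice for 4825. These counts are not alike, since a range of 4 mice is wider than one of 3 and the day 7 mice were more spread on the first component. Whether its label is right was not tested, and key values are also given without mouse 27. Below, values of single mice are log2 CPM in the order mouse 23, 26, 21 and 35 at day 7 and mouse 27, 36, 14 and 40 at day 14.

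Of 21390 genes, 3674 were differentially expressed genes (DEG) between the days (17.2%), with 1183 higher at day 14 (5.53%) and 2491 lower (11.6%). A DEG had an adjusted p under 0.01 in edgeR's quasi-likelihood test with Benjamini-Hochberg adjustment over all genes and a fold change over 1.5, in a model of all 48 libraries. The median log2 fold change over all genes was -0.00. The number rested on single mice: it was 6236 without mouse 27 and 1181, 1760, 1842 and 1782 without mouse 21, 35, 36 or 14, while without mouse 23, 26 or 40 it was 5195, 4687 or 2491. The shares of 5.53% and 11.6% are the background for counts of list members called higher or lower below. With a mouse left out this background moves with the number of DEG. Without mouse 27, 2219 genes were higher and 4017 lower. A model of the 8 libraries alone called 0 genes by edgeR, with 4261 at an unadjusted p under 0.05, and 108 by DESeq2, and the same model without mouse 27 called 452. The p-values below are from the model of all 48 libraries, which takes 1 spread per gene over all groups. Distances of a library to the others of its group were taken as the mean root mean square log2 difference. They were 0.69 to 0.80 in kainate EZ at day 7 and 0.71 to 1.13 at day 14. In saline EZ they were 0.43 to 0.45 and 0.43 to 0.44. The shared spread can thus be smaller than that among the kainate EZ mice. A limma-voom model with both sides of a mouse as a block (replicate block) called 3827 genes, 3206 of them shared, and is given below where it changes a call or moves a count by over 1.5 times. The levels of the 4 mice of one day lay wholly above or below those of the other for 1296 genes (6.06%), of which 582 were higher at day 14 (2.72%) and 714 lower (3.34%), and 518 of the 1296 were DEG. Without mouse 27 the days were separate for 8793 genes (41.1%), 3320 of them DEG.

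**Figure D1:**
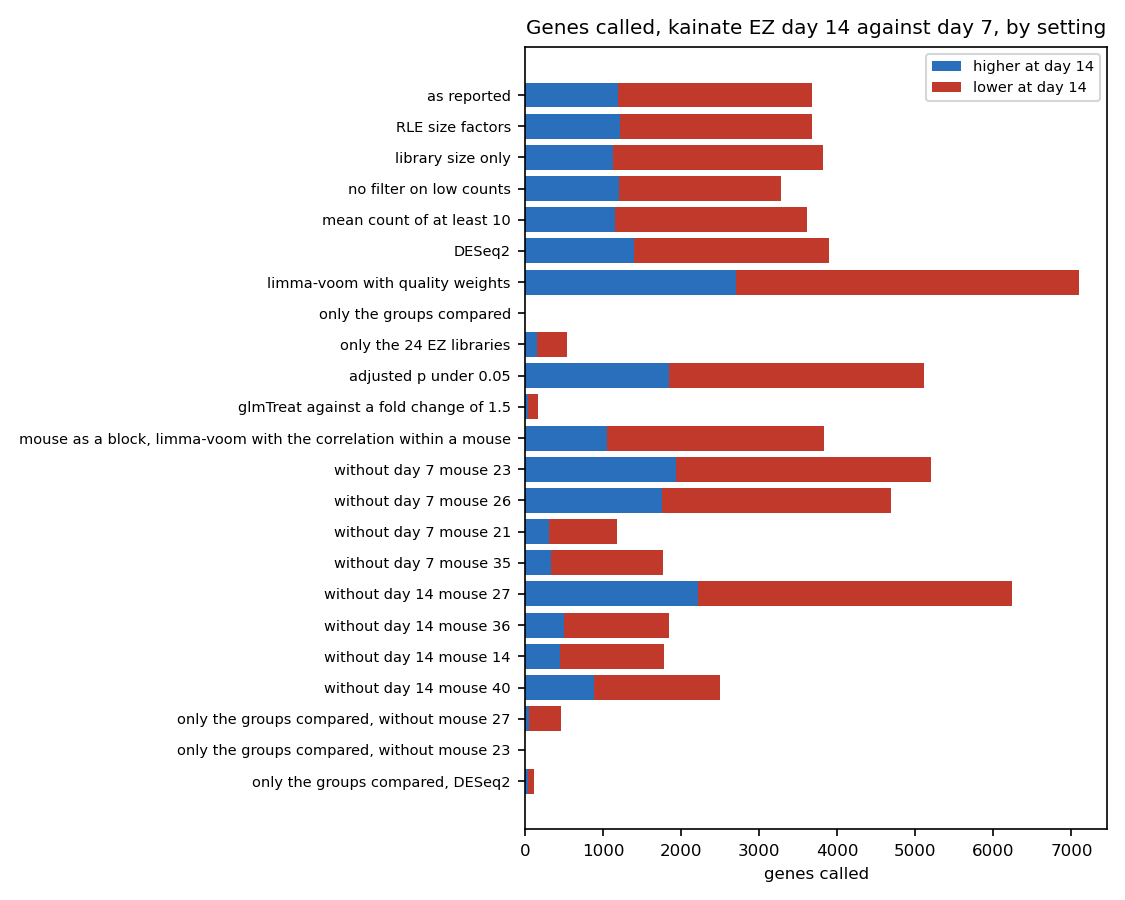
Number of genes called between day 14 and day 7 in the kainate EZ (horizontal axis) as reported and under each alternative (vertical axis), split into higher (blue) and lower (red) at day 14. The count ranges from 0 in the model of the 8 compared libraries alone to 7100 with limma-voom quality weights, and is 6236 without mouse 27.

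In saline EZ libraries the same days gave 0 DEG by edgeR, with 319 genes at an unadjusted p under 0.05, and 0 by DESeq2. On the other side of the kainate mice 1 gene was lower at day 14 (0.00468%), 9630013A20Rik, a transcript with no described protein, with a log2 fold change of -2.45. In that PIZ comparison 898 genes had an unadjusted p under 0.05, and DESeq2 called 4. The change in kainate EZ differed from the change in saline EZ, tested as the difference itself, for 58 genes (0.271%), 26 with a higher difference (0.122%) and 32 with a lower one (0.15%). That count was 4108 without mouse 27, 2401 without mouse 23, 1123 without mouse 26, and 1 to 22 without any one of the other 13 mice, with 1 for 9 of them. The change in EZ differed from that in PIZ of the same mice for 1 gene, Cck (0.00468%). This became 1889 genes without mouse 27, 213 without mouse 23, and 0 with mouse as a block in a model of these libraries alone.

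Genes of cell division fell. All 16 mitosis genes tested were lower at day 14 (background 11.6%), with a median log2 fold change of -2.38 beside -0.00 over all genes. Of 15 DNA replication genes, 14 were lower with a median of -1.10, and Mcm6, a helicase subunit, was the one not called (-0.54). With any 1 mouse left out, 15 or 16 mitosis genes and 12 to 14 replication genes stayed called. The days did not overlap for 10 replication genes and 6 mitosis genes (background 3.34%).

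Several promoters of these genes are shown because the CCAAT box, bound by the factor NF-Y, is a known element of cell cycle promoters. The letters CCAAT or ATTGG, the same box on the other strand, were searched on both strands of the RefSeq promoter window upstream of the start (GRCm38.p6 table), which was found for 12819 genes. They occurred in 35.9% of these windows, in 11 of 13 replication genes with a window (84.6%) and in 11 of 13 mitosis genes (84.6%). The other lists searched had them in 7 of 11 MHC class I genes (63.6%), 6 of 15 potassium channel genes (40%), 4 of 14 interferon response genes (28.6%), 2 of 8 interferon-inducible GTPases (25%) and 2 of 15 synaptic vesicle genes (13.3%). The letters TTTGAA of the cell cycle homology region (CHR) occurred in 11.2% of all windows, in 5 of 13 mitosis genes (38.5%), in 2 of 13 replication genes (15.4%) and, with a higher share than in mitosis genes, in 4 of 8 interferon-inducible GTPases. The stretches below are 80 bases each, 5′ to 3′ on the strand of the gene, with GRCm39 positions and the box in capitals. They were chosen after the values were seen, because the match lies upstream of the annotated gene. A match is a description of letters, not a binding site.
Mcm5, chr8:75836057-75836136, plus strand: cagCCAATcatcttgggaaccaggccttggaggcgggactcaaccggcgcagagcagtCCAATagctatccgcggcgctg
Mcm3, chr1:20890537-20890616, minus strand: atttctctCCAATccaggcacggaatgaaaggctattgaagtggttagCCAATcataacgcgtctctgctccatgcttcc
Cenpf, chr1:189420316-189420395, minus strand: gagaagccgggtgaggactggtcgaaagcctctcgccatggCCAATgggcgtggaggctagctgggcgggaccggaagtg
Top2a, chr11:98915063-98915142, minus strand: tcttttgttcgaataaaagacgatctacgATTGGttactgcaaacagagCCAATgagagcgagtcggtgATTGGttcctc

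Among the replication genes, Mcm5 (chromosome 8, 75836140 to 75856231), a subunit of the helicase that opens DNA at origins, lay at 3.79, 4.20, 4.64 and 4.31 at day 7 and at 3.15, 2.28, 2.55 and 2.80 at day 14. Its days did not overlap, and mouse 27 was the highest of day 14. It fell by 1.54 on the log2 scale (SE 0.24, adjusted p = 4.45e-05), and saline mice of day 14 lay at 2.46 to 2.65. Uhrf1, which carries DNA methylation to new strands, lay at 2.27, 3.46, 4.22 and 3.96 and then at 2.08, 0.53, 0.77 and 1.51. Every day 14 mouse was below every day 7 mouse, mouse 27 only just (log2 fold change -2.32, SE 0.34, adjusted p = 3.19e-05). Rrm1, a subunit of ribonucleotide reductase, fell by 0.96 on the log2 scale, Pcna, the sliding clamp of DNA polymerase, by 0.76, and Tyms, thymidylate synthase, by 0.98.

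Mki67, a marker of cycling cells, lay at 3.51, 5.03, 6.12 and 6.10 at day 7 and at 3.87, 2.03, 1.84 and 2.11 at day 14. Mouse 27 was above mouse 23 of day 7, and the other 3 mice of day 14 were below all of day 7 (log2 fold change -2.79, SE 0.46, adjusted p = 8.49e-05). Tpx2, which nucleates spindle microtubules, lay at 2.52, 3.60, 4.57 and 4.67 and then at 2.38, 1.45, 1.44 and 1.45 (log2 fold change -2.35, SE 0.34, adjusted p = 3.19e-05). Its days did not overlap, and 3 mice of day 14 were within 0.01 of each other while mouse 27 was higher. Aurka, the spindle kinase Aurora A, differed from this pattern. It lay at 1.43, 1.78, 2.73 and 2.76 at day 7 and at 0.62, 0.41, 0.59 and 0.38 at day 14, with mouse 27 beside the other mice of its day (log2 fold change -1.85, SE 0.27). The fall of Aurka exceeded that in saline mice by 2.10 on the log2 scale, a difference that passed the test. Kifc1, a spindle motor, and Kif20a, a motor of cytokinesis, fell by 2.03 and 2.69, and Cenpf, a kinetochore protein, by 2.30. Outside both lists, Tcf19, a gene expressed at the start of S phase, fell by 1.92, and its fall also differed from that in saline mice. These calls were kept with any 1 mouse left out. Among the 10 lower genes with the smallest p were also Psph, the last enzyme of serine synthesis, and Myo10, a motor of filopodia, with falls of 0.64 and 0.70. Psph lost its call without mouse 35, and Myo10 kept it with any 1 mouse left out.

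**Figure D2:**
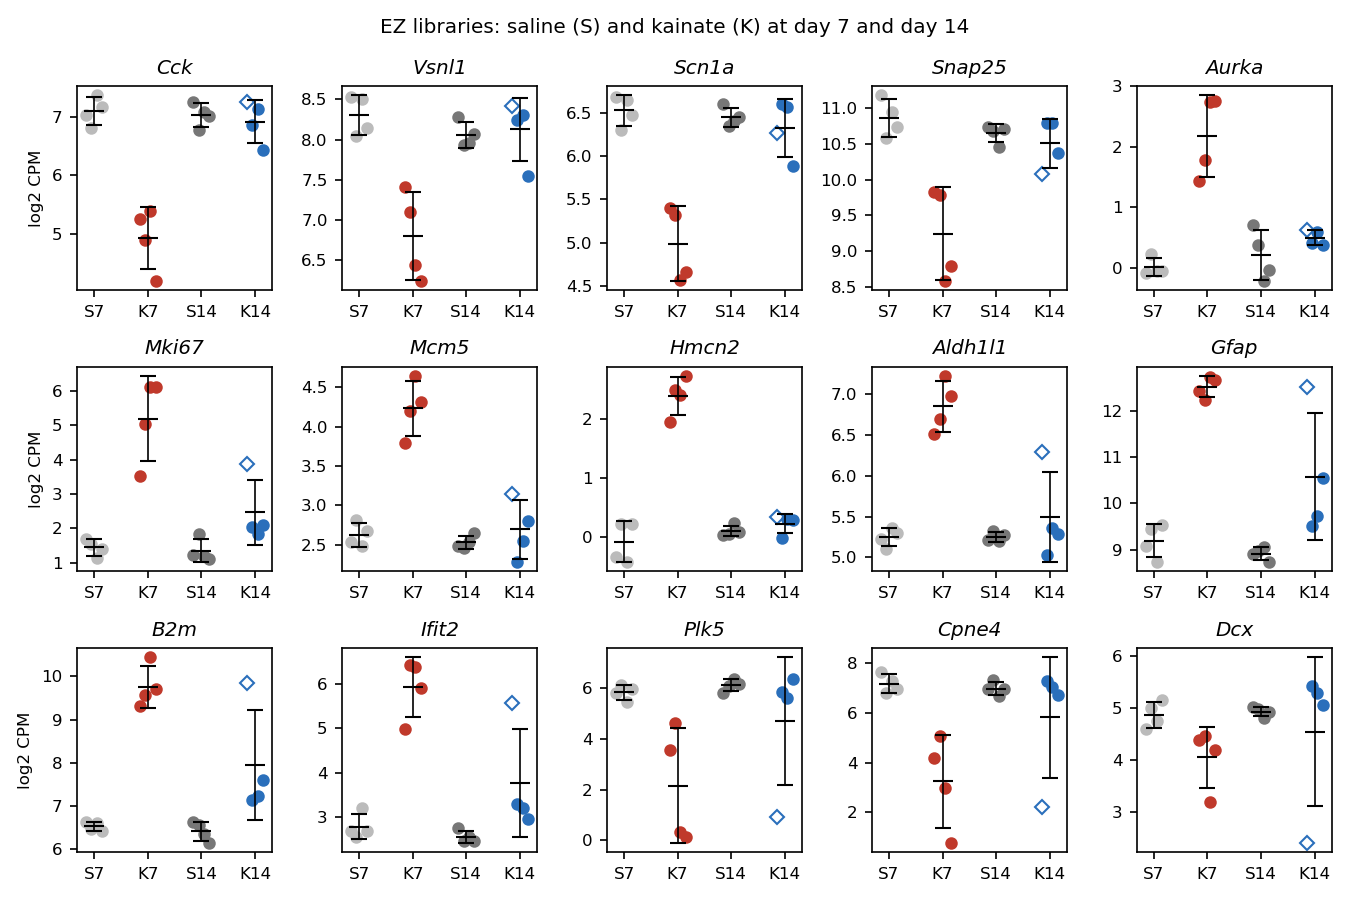
Log2 CPM (vertical axes) of 15 genes in single EZ libraries of saline (S, grey) and kainate (K, red at day 7 and blue at day 14) mice, with the mean and SD of 4 mice and mouse 27 as an open diamond. Mouse 27 lies with the other day 14 mice for Cck, Vsnl1 and Aurka, with the day 7 mice for Gfap, B2m and Ifit2, and below the other day 14 mice for Plk5, Cpne4 and Dcx.

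Genes of the immune response fell as well. Interferons are cytokines that induce antiviral genes through factors such as Stat2 and Irf9, which act at the interferon-stimulated response element (ISRE) in promoters. All 20 interferon response genes, all 11 interferon-inducible GTPases and all 13 genes of MHC class I presentation were lower at day 14 (background 11.6%), with median log2 fold changes of -2.09, -1.65 and -1.53. The days did not overlap for 7 interferon response genes, 1 GTPase and 0 class I genes (background 3.34%). Without mouse 27 they were separate for all 20, 11 and 13 (background 22.9% lower), and the medians were -3.50, -2.60 and -2.56. Interferon response calls were 13 without mouse 21, 36 or 14 and 14 without mouse 40. Class I calls were 7 without mouse 21, and GTPase calls stayed between 9 and 11.

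The letters of an ISRE (GAAA, then 2 bases of any kind, then GAAA) were searched on both strands of the same windows. They occurred in 2.68% of all windows, in 7 of 14 interferon response genes (50%), in 8 of 8 GTPases (100.0%) and in 2 of 11 class I genes (18.2%), and in 1 of 13 mitosis genes (7.69%). The element is in capitals below, where overlapping matches are joined. These genes were also chosen after their values were seen.
Ifit1, chr19:34618174-34618253, plus strand: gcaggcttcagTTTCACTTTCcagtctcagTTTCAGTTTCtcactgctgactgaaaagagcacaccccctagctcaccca
Isg15, chr4:156285304-156285383, minus strand: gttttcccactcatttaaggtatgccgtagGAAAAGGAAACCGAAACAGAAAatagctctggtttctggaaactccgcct
Bst2, chr8:71990191-71990270, minus strand: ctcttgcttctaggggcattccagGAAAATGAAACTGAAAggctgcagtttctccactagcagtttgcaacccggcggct

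Ifit1 and Isg15, an RNA-binding restriction factor and a ubiquitin-like modifier, fell by 2.22 and 2.37 on the log2 scale. Bst2, which tethers budding virus to cells, fell by 2.21. Ifit2, a relative of Ifit1 (chromosome 19, 34527932 to 34554524), lay at 4.99, 6.43, 6.39 and 5.91 at day 7 and at 5.57, 3.30, 3.22 and 2.96 at day 14. Mouse 27 was inside the range of day 7, and the other 3 mice were below all of day 7 and above saline mice of day 14, which lay at 2.46 to 2.75. The log2 fold change was -1.82 (SE 0.34, adjusted p = 0.000215), and -2.88 without mouse 27. Stat2, a signalling factor, fell by 1.07, and the immunity-related GTPases Irgm1 and Iigp1 by 1.77 (2.80 without mouse 27) and 1.83, each called with any 1 mouse left out.

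B2m, the light chain of MHC class I molecules, lay at 9.31, 9.56, 10.44 and 9.70 at day 7 and at 9.85, 7.13, 7.22 and 7.59 at day 14. Mouse 27 lay inside the day 7 range and the other 3 mice were below all of day 7 but above saline mice of day 14 at 6.14 to 6.62. The log2 fold change was -1.36 (SE 0.37, adjusted p = 0.00359) and -2.49 without mouse 27, and the call was lost without mouse 21, 36, 14 or 40. Tapbp, which loads peptides onto class I molecules and shares exon bases with Zbtb22, fell by 1.53 and kept its call in each such fit. Of 8 genes of MHC class II presentation, which serves professional antigen-presenting cells, 7 were lower, with a median of -2.16 (-3.32 without mouse 27). The exception was H2-DMa, a peptide exchange factor, at -0.47. H2-Aa, a class II chain, lay at 3.05, 3.55, 5.40 and 4.79 and then at 2.92, 0.28, 1.24 and 0.47, without overlap (log2 fold change -2.87, SE 0.67, adjusted p = 0.00121). No class II gene was called without mouse 21, and 3 or 4 were called without mouse 35, 36, 14 or 40.

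Microglial genes fell in both lists. The homeostatic list, genes of resting microglia, had 11 of 12 lower with a median of -1.37, and the disease-associated list, genes of phagocytic microglia, had 15 of 20 lower with a median of -1.52. Without mouse 27 the medians were -2.26 and -2.61. Without mouse 21 each list had 3 calls. The homeostatic list had 7 without mouse 36 or 14, and the disease-associated list had 8 without either and 9 without mouse 35 or 40. Csf1r, the receptor on which microglia depend for survival, lay at 8.58, 9.12, 10.30 and 9.78 at day 7 and at 9.18, 6.94, 7.19 and 7.35 at day 14. Mouse 27 was inside the day 7 range, and the other 3 were below all of day 7 and above saline mice of day 14 at 6.71 to 6.82 (log2 fold change -1.61, SE 0.30, adjusted p = 0.000193, and -2.42 without mouse 27). Tmem119 and Sall1, a surface protein and a transcription factor of resident microglia, fell by 1.63 and 1.26 (Tmem119 by 2.62 without mouse 27). Ctsb, a lysosomal protease, lay at 10.23, 10.75, 12.44 and 12.12 and then at 11.03, 8.95, 9.03 and 9.39 (log2 fold change -1.77, SE 0.34, adjusted p = 0.000249). Apoe, a lipid carrier, and Axl, a receptor for dying cells, fell by 1.49 and 1.30. Without mouse 27 Apoe fell by 2.26, and its call was lost without mouse 21. Summed over the homeostatic list, day 7 mice held 2813, 3424, 7658 and 5651 CPM and day 14 mice 4392, 738.4, 847.3 and 1005, beside 629.6 to 675.1 in saline mice of day 14.

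Not every phagocytic gene was called. Cst7, an inhibitor of lysosomal proteases, lay at 5.83, 6.44, 7.28 and 6.86 at day 7 and at 7.47, 3.04, 3.43 and 5.26 at day 14. Mouse 27 was the highest of all 8 and mouse 40 was between the days, and the log2 fold change of -0.82 (SE 0.52) had an adjusted p of 0.206 in edgeR's test. Clec7a, a receptor for fungal sugars, had a log2 fold change of -1.34 and an adjusted p of 0.0299. The disease-associated members Itgax (-0.64), Lpl (-0.45) and Ccl6 (-0.44) were not called either. Without mouse 27, 18 of the 20 disease-associated genes were called. For Cst7, mice 36, 14 and 40 lay below every mouse of day 7. They did so too for Clec7a, at 2.89, 3.33 and 4.40 beside 5.51 to 7.10 at day 7.

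In the complement list, 8 of 13 members were lower at day 14 (background 11.6%), with a median of -1.37 (-3.33 without mouse 27). Called genes numbered 13 without mouse 27, 1 without mouse 21, and 3 to 5 without mouse 35, 36, 14 or 40, and 13 with the replicate block. C1qb, a chain of the first component, lay at 8.70, 9.21, 10.79 and 10.36 and then at 9.63, 6.08, 6.47 and 7.23 (log2 fold change -1.90, SE 0.45, adjusted p = 0.00122, and -3.33 without mouse 27). Only mouse 27 overlapped day 7, and the call was lost without mouse 21 or 14. C3ar1, the receptor for a fragment of C3, fell by 2.26 (3.71 without mouse 27), a call lost without mouse 21. Factor B (Cfb) fell by 2.68 (4.91 without mouse 27) with no overlap between the days, at 2.30 in mouse 27 and -1.22 to -1.38 in the other 3, and shares most of its exon bases with another annotated gene on the same strand. For Cfb the estimate over the same days was -2.54 in kainate PIZ and 0.13 in saline EZ, and neither was called. C3 itself, the central component, had a difference of -1.33 on the log2 scale and was not called (SE 0.53, adjusted p = 0.0409).

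Of 16 cytokines and chemokines tested, 9 were lower (background 11.6%), with a median of -1.61 (-3.14 without mouse 27). The other 3 members, Il6, Cxcl1 and Cxcl2, did not pass the filter on low counts. The called number was 16 without mouse 27, 2 without mouse 21, 36 or 14, 3 without mouse 35 or 40, and 16 with the replicate block. Cxcl10, an interferon-induced attractant of T cells, lay at 5.24, 6.42, 5.71 and 4.83 at day 7 and at 4.75, 0.87, 1.62 and 1.51 at day 14. Its days did not overlap, though mouse 27 was only just below mouse 35 (log2 fold change -2.56, SE 0.61, adjusted p = 0.00143, and -4.34 without mouse 27, lost without mouse 36 or 14). For Cxcl10 the estimate over the same days was -2.56 in kainate PIZ and -1.49 in saline EZ, and neither was called. Tgfb1 fell by 1.73, a call lost without mouse 21.

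Most markers of infiltrating leukocytes were barely counted. Of 16, 10 had too few counts to be tested, among them the T cell genes Cd3e and Cd8a, the B cell gene Ms4a1 and the neutrophil gene Ly6g. Of the 6 tested, 3 were lower, and 1 without mouse 21. Ptprc, the common leukocyte antigen that microglia also express, fell by 1.39 (2.50 without mouse 27), Ccr2, a receptor of monocytes, by 1.90, and Cd4 by 2.81. The call of Ptprc was lost without mouse 21, 35, 36, 14 or 40, and that of Cd4 without mouse 21 and with the replicate block. Their summed level was 39.2 to 132.2 CPM at day 7 and 16.4 to 86.6 at day 14, with mouse 27 the highest of day 14. The part of such cells in the immune results was not tested.

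Some astrocyte genes fell, in the reactive and in the homeostatic list. In the reactive list, 12 of 25 members were lower and 0 higher, with a median of -1.21 (-2.54 without mouse 27). The number rested on single mice, since 24 members were called without mouse 27, and 1 without any of mice 21, 35, 36, 14 or 40, and 22 with the replicate block. Gfap, the intermediate filament that marks reactive astrocytes (chromosome 11, 102778159 to 102791738), lay at 12.44, 12.24, 12.73 and 12.68 at day 7 and at 12.52, 9.51, 9.72 and 10.55 at day 14. Mouse 27 was as high as day 7, and the other 3 were below all of day 7 and above saline mice of day 14, at 8.73 to 9.05. The log2 fold change was -1.41 (SE 0.40, adjusted p = 0.00532) with mouse 27 and -2.54 without it. Vim, another filament, had 8.25, 8.97, 10.28 and 10.30 and then 9.42, 5.66, 5.94 and 6.66 (log2 fold change -1.88, SE 0.49, and -3.54 without mouse 27), and Timp1, an inhibitor of matrix proteases, fell by 2.51 (5.57 without mouse 27). These 3 calls were lost without any of mice 21, 35, 36, 14 or 40. Nes, a filament of progenitors, fell by 1.55 and kept its call with any 1 mouse left out.

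In the homeostatic list, genes of resting astrocytes, 6 of 15 members were lower and 4 had separate days (background 3.34%), with a median of -0.49. Between 6 and 8 were called with any 1 mouse left out. Aldh1l1, a folate enzyme used as a pan-astrocyte marker (chromosome 6, 90463409 to 90577185), lay at 6.51, 6.70, 7.22 and 6.98 at day 7 and at 6.29, 5.03, 5.36 and 5.29 at day 14. Its days did not overlap, and mouse 27 was closer to day 7 than to the other 3, while saline mice of day 14 lay at 5.20 to 5.32. It fell by 1.30 on the log2 scale (SE 0.17, adjusted p = 1.31e-05), and its fall exceeded that in saline mice by 1.31, which passed the test. Fgfr3, a growth factor receptor of astrocytes, fell by 0.66, and Mlc1, a membrane protein of astrocyte end-feet, by 0.71. Slc1a2, the main glutamate transporter and the most abundant of the list, lay at 12.17, 11.93, 11.40 and 11.24 and then at 11.60, 11.71, 11.81 and 11.68, with a log2 fold change of -0.03 (SE 0.14). The 4 mice of day 14 lay inside the range of day 7.

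**Figure D3:**
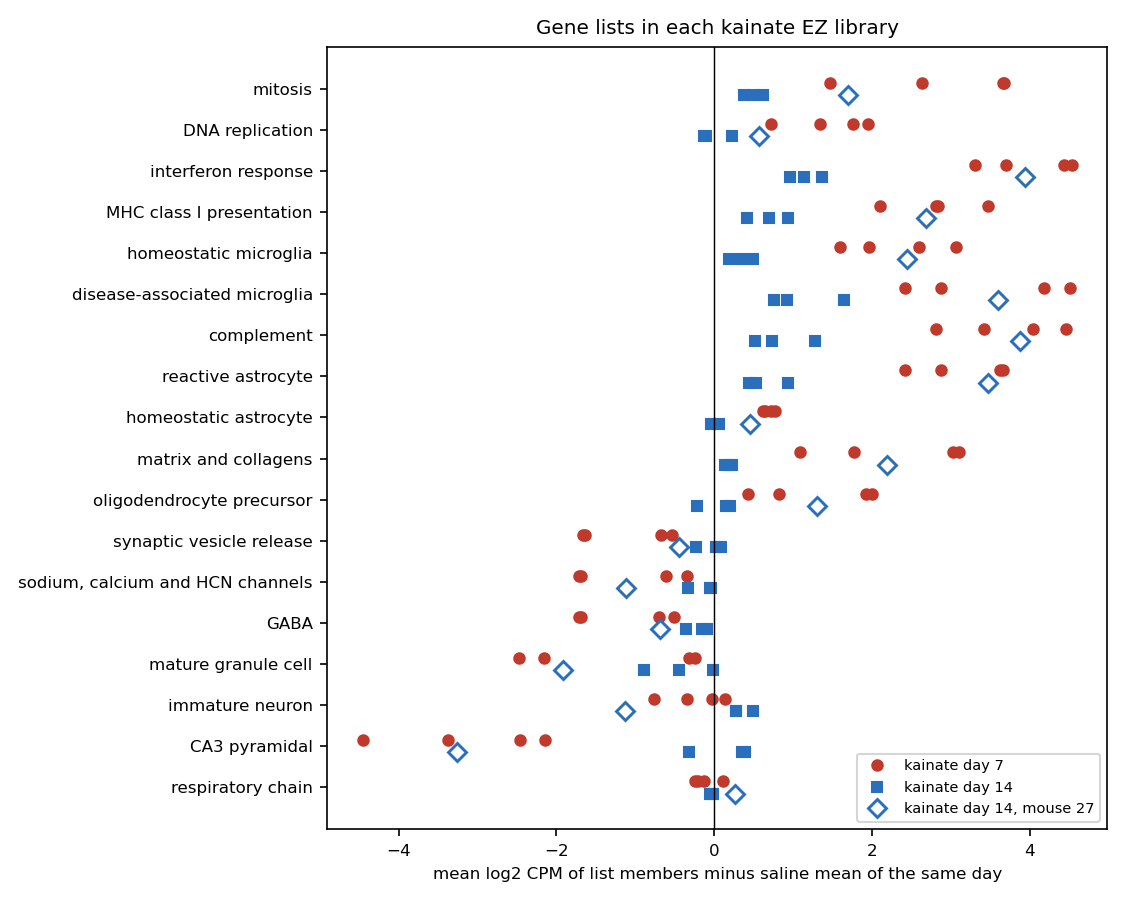
Mean log2 CPM of the tested members of 18 gene lists in each kainate EZ library, minus the mean of saline EZ libraries of the same day (horizontal axis), for day 7 (red), day 14 (blue) and day 14 mouse 27 (open diamond). Mice 36, 14 and 40 lie between -1 and 2 in every list, while mouse 27 lies at 3.94 for interferon response, 3.48 for reactive astrocyte and -3.26 for CA3 pyramidal genes.

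Matrix genes fell in part. Of 19 matrix and collagen genes, 9 were lower with a median of -1.22 (-2.16 without mouse 27), and 2 to 4 were called without mouse 21, 35, 36, 14 or 40. Hmcn2, the matrix protein hemicentin 2 (chromosome 2, 31204263 to 31350750), lay at 1.95, 2.50, 2.41 and 2.73 at day 7 and at 0.34, -0.01, 0.32 and 0.29 at day 14. Here mouse 27 lay with its own day and the days were far apart. The log2 fold change was -2.27 (SE 0.28, adjusted p = 6.67e-06), saline mice of day 14 lay at 0.04 to 0.24, and the fall exceeded that in saline mice by 2.43. Hmcn2 was the matrix gene with the smallest p. Vcan, the proteoglycan versican, lay at 5.53, 5.76, 6.79 and 6.97 and then at 6.08, 4.70, 4.50 and 4.42 (log2 fold change -1.29, SE 0.25, adjusted p = 0.000235). Its mouse 27 overlapped day 7. Ncan, the brain proteoglycan neurocan, fell by 0.94 without overlap, from 8.72 to 9.11 at day 7 to 8.52 in mouse 27 and 7.65 to 7.77 in the other 3. Col1a1, a fibrillar collagen, fell by 2.41, a call lost without mouse 21, and Fn1, fibronectin, by 1.37 (2.45 without mouse 27), a call lost without any of mice 21, 35, 36, 14 or 40. Beside these, meningeal and fibroblast markers had 2 of 8 lower (background 11.6%), Igf2 (-1.31) and Pdgfrb (-0.76), and 1 of 8, Ptgds, with separate days and a higher level at day 14 (0.81, not called, background 2.72%). The 2 calls became 0 without mouse 21 or 35, 1 without mouse 36, 14 or 40, 3 without mouse 26, 4 without mouse 23 or 27, and 1 with the replicate block. Their summed level was 141.8 to 380.8 CPM at day 7 and 192.5 to 276.3 at day 14. The part of meningeal tissue in the matrix results was not tested.

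Genes of the oligodendrocyte lineage fell in part. Of 9 precursor genes, 8 were lower with a median of -1.10, and 4 or 5 without mouse 21, 35 or 40. Olig1, a transcription factor of the lineage, lay at 6.58, 6.66, 7.65 and 7.30 at day 7 and at 6.50, 5.66, 5.97 and 5.61 at day 14, without overlap (log2 fold change -1.14, SE 0.17, adjusted p = 3.71e-05). Enpp6, a marker of newly formed oligodendrocytes, fell by 1.90, beside estimates of -0.97 in saline EZ and -0.97 in kainate PIZ, neither called. Of 13 myelin genes, 2 were lower, Cnp (-0.77) and Myrf (-0.85), a share near the background of 11.6%, with a median of -0.40 beside -0.42 in saline mice. None was called without mouse 21, 35, 36, 14 or 40 or with the replicate block, and 4 or 5 were called without mouse 27, 26 or 23. Mbp, myelin basic protein, lay at 10.91, 10.58, 12.22 and 11.50 and then at 11.37, 11.11, 11.10 and 10.08, and was not called (-0.45, SE 0.28). Mice 21 and 35 of day 7 held the highest myelin sums, 11055 and 7391 CPM, against 3774 to 6222 in mice 23, 26, 27, 36 and 14 and 2597 in mouse 40. Of 14 endothelial genes, 5 were lower (background 11.6%) with a median of -0.57. The number was 11 without mouse 27, 8 without mouse 23, 1 without mouse 21 or 35, 0 without mouse 36, 14 or 40, and 3 with the replicate block. Mfsd2a, a lipid transporter of the blood-brain barrier, lay at 5.77, 5.34, 5.49 and 5.68 and then at 5.51, 3.66, 3.58 and 3.77. Mouse 27 was inside the range of day 7 and the others below all of day 7 (log2 fold change -1.19, SE 0.29, adjusted p = 0.00163, and -1.91 without mouse 27, lost without mouse 36, 14 or 40).

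**Figure D4:**
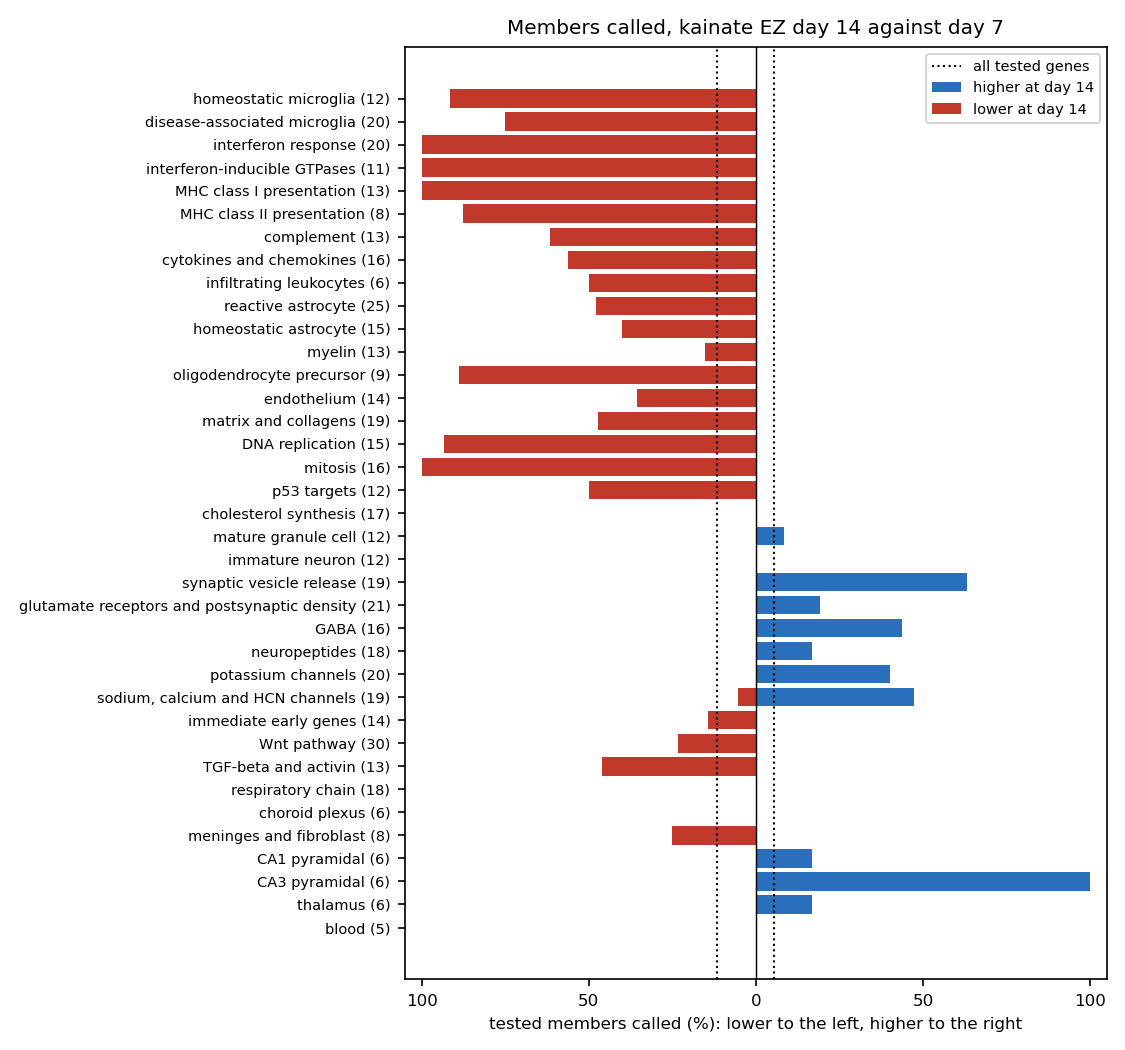
Share of the tested members of each of 37 gene lists (number in brackets) called lower (red, to the left) or higher (blue, to the right) at day 14 in the kainate EZ, in percent. Dotted lines mark the shares over all tested genes, 11.6% lower and 5.53% higher, and in all but one list with calls the called members point in 1 direction.

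Several groups of neuronal genes rose. The gene with the smallest p of all was Cck (chromosome 9, 121315695 to 121324863), which encodes cholecystokinin, a neuropeptide of basket cells and of mossy cells in the hilus. It lay at 5.25, 4.89, 5.38 and 4.18 at day 7 and at 7.26, 6.87, 7.14 and 6.43 at day 14. All 4 mice of day 14 were above every mouse of day 7, mouse 27 was the highest, and saline mice of day 14 lay at 6.78 to 7.27. The log2 fold change was 1.97 (SE 0.19, adjusted p = 2.32e-08), a fold of 3.92. Cck exceeded the saline change by 2.04 and the PIZ change of the same mice by 1.79, and it was the only gene for which the difference between the sides passed the test in the model of all 48 libraries. With mouse as a block in a model of these libraries alone 0 genes passed, Cck included, with 2275 at an unadjusted p under 0.05.

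Of the other genes with the smallest p among those higher, Vsnl1, the calcium sensor visinin-like 1, lay at 7.41, 7.10, 6.44 and 6.24 at day 7 and at 8.42, 8.24, 8.31 and 7.55 at day 14. The days did not overlap, mouse 40 came closest to day 7, and mouse 27 was the highest (log2 fold change 1.30, SE 0.18, adjusted p = 2.66e-05). Scn1a, the sodium channel subunit of fast-spiking interneurons, lay at 5.40, 5.32, 4.57 and 4.66 and then at 6.27, 6.60, 6.57 and 5.88, again without overlap (log2 fold change 1.32, SE 0.19). Frmpd4, a scaffold of dendritic spines, rose by 1.28, Fgf12, an intracellular partner of sodium channels, by 1.04, and Fbxw7, a ubiquitin ligase subunit, by 0.78. Fbxw7 was highest in mouse 27, at 7.64, with 7.15 to 7.31 in mice 36, 14 and 40. Zfp385b rose by 1.39 and Bend6 by 1.01, and the imprinted transcripts Snrpn and Peg13 rose by 1.05 and 0.76, with part of their exons shared with Snurf and Trappc9 on the same strand. All 10 kept their calls with any 1 mouse left out and had separate days. Relative to saline, the changes of Vsnl1, Scn1a, Frmpd4, Fgf12, Zfp385b, Bend6, Snrpn and Peg13 were larger by 1.55, 1.41, 1.41, 1.07, 1.55, 1.06, 1.16 and 0.75, and each of these differences passed the test. In all, 1 gene passed this test of the difference when any one of 9 single mice was left out.

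The machinery of synaptic vesicle release rose as a group, with 12 of 19 members higher and 0 lower (background 5.53% and 11.6%) and a median of 0.81. For 9 of the 19 the days did not overlap (background 2.72%). The called number was 5 without mouse 21 and 7 without mouse 35 or 14. Snap25, a membrane fusion protein, lay at 9.82, 9.79, 8.58 and 8.79 at day 7 and at 10.08, 10.79, 10.79 and 10.37 at day 14. Mouse 27 was the lowest of day 14 and still above day 7 (log2 fold change 1.18, SE 0.21, adjusted p = 0.000137), and the rise exceeded that in saline mice by 1.41. Cplx1, complexin 1, lay at 7.41, 7.54, 6.66 and 6.60 and then at 8.26, 8.23, 8.27 and 7.92 (log2 fold change 1.06, SE 0.21), with mouse 27 beside the others. Its relative Cplx2 lay at 10.60, 10.40, 8.71 and 8.85 and then at 9.79, 10.75, 10.69 and 10.92. Mouse 27 lay between the mice of day 7, and Cplx2 was not called (0.71, SE 0.24, adjusted p = 0.0177). It was called without mouse 27 (0.91), 23 or 26 and with the replicate block (0.89). Rims1, a scaffold of the active zone, rose by 0.95, and Sv2b, a vesicle glycoprotein, by 1.94.

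Ion channels rose in part. Of 20 potassium channel genes, 8 were higher (background 5.53%) with a median of 0.61. Without mouse 23, 16 were called, with 5 without mouse 36 and 3 without mouse 21, 35 or 14. Kcnma1, a calcium-activated channel, lay at 7.30, 7.20, 6.32 and 6.31 and then at 7.44, 8.06, 8.15 and 7.60, without overlap (log2 fold change 0.99, SE 0.19, adjusted p = 0.000223). Kcnip4, a subunit of A-type channels, rose by 0.97 and was highest in mouse 27, at 6.39 beside 5.80 to 5.88 in the other 3. Kcnc1, a channel of fast-spiking cells, rose by 1.15, a call lost without mouse 21, with mouse 27 at 5.92 inside the range of day 7 and the others at 7.28 to 7.40. Of 19 sodium, calcium and HCN channel genes, 9 were higher and 1, the pacemaker channel Hcn4, was lower (-1.02). Their median was 0.78, and 3 to 6 were called without mouse 21, 35, 36 or 14 and 15 without mouse 23. Scn2b, a sodium channel subunit, rose by 1.11. Scn4b, another, lay at 2.29, 1.0, 0.70 and 0.12 at day 7 and at -0.46, 4.64, 4.77 and 3.84 at day 14, so that mouse 27 was the lowest of all 8 and the other 3 were the highest (log2 fold change 2.88, SE 0.58, adjusted p = 0.000358), a call lost with the replicate block (2.17). Cacna1e, a calcium channel, lay at 8.63, 8.43, 6.39 and 6.31 and then at 6.31, 9.19, 9.21 and 9.04, and was not called (0.98, adjusted p = 0.0283), but was without mouse 27 (1.32), 23 or 26.

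Genes of inhibitory transmission rose in 7 of 16 cases (background 5.53%) and fell in 0, with a median of 0.66. But 1 was called without mouse 21 or 35, 3 without mouse 14 and 4 without mouse 36. Pvalb, parvalbumin of fast-spiking interneurons, lay at 2.46, 1.33, 1.58 and 1.20 and then at 1.39, 3.91, 3.95 and 3.49 (log2 fold change 1.77, SE 0.39, adjusted p = 0.000665). Mouse 27 lay among the mice of day 7, and the other 3 were close to saline mice of day 14, at 3.64 to 4.10. Lhx6, a transcription factor of the same interneurons, rose by 1.51, a call lost without mouse 21 or 35 or with the replicate block (1.29). The GABA synthesis genes Gad1 (0.50) and Gad2 (0.34) were not called. Of 21 genes of glutamate receptors and the postsynaptic density, 4 were higher (background 5.53%), with a median of 0.63. Their number ranged from 0 without mouse 21, 35 or 14 and 1 without mouse 36 to 12, 13 and 15 without mouse 26, 23 or 27, and was 7 with the replicate block. Gria3 and Gria2, AMPA receptor subunits, rose by 0.70 and 0.67, calls lost without mouse 21, 35 or 14 and, for Gria2, also mouse 36. Camk2a, the calcium-dependent kinase of synapses, lay at 11.86, 11.51, 10.18 and 9.79 and then at 10.49, 11.92, 11.95 and 11.97, and was not called (0.61, SE 0.27, adjusted p = 0.061), but was without mouse 27 (0.86) or 23.

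Neuropeptides, Cck among them, pointed both ways. Of 18, 3 were higher and 0 lower, with a median of -0.44 over all of them (-1.96 without mouse 27), so that the median and the calls differ in sign. Beside Cck, Sst, somatostatin of hilar interneurons, lay at 3.24, 3.63, 4.42 and -1.74 and then at 1.21, 5.98, 6.34 and 5.13 (log2 fold change 2.06, SE 0.62, adjusted p = 0.00848). Mouse 35 of day 7 and mouse 27 were the 2 lowest, and the call was lost without mouse 23, 26, 35, 36, 14 or 40 and with the replicate block. Tac1, the precursor of substance P, rose by 1.93, at 0.15, 0.38, -1.31 and -1.96 and then at -0.29, 1.45, 1.97 and 1.67. Mouse 27 lay inside the range of day 7 and the others above it. The peptide genes Trh (-2.50), Penk (-2.01) and Gal (-1.84) and the activity-regulated pentraxin Nptx2 (-1.21) had lower estimates but were not called, and 13 neuropeptides were called without mouse 27 and 6 without mouse 23 or with the replicate block.

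Immediate early genes, which neurons switch on after firing, had 2 of 14 lower, a share near the background of 11.6%, and 3 had separate days (background 3.34%). Their median was -0.84 (-1.50 without mouse 27). The called number was 9 without mouse 27, 4 without mouse 26, 0 without mouse 35, 36 or 14 and 1 without mouse 40. Arc, a synaptic plasticity gene, lay at 7.60, 7.19, 6.82 and 8.29 at day 7 and at 6.35, 5.48, 5.97 and 5.92 at day 14, without overlap (log2 fold change -1.62, SE 0.43, adjusted p = 0.00326, lost without mouse 35, 36, 14 or 40). Egr2, a zinc finger factor, fell by 2.19, a call lost without mouse 35, 36 or 14 or with the replicate block. Npas4, a factor specific to neuronal activity, lay at 6.41, 5.12, 5.14 and 7.49 and then at 6.03, 2.50, 3.09 and 3.18 and was not called (-1.92, adjusted p = 0.0122). It was called without mouse 27 (-3.44) or 26 and with the replicate block (-2.31). Mouse 27 lay inside the range of day 7, and the other 3 were below it.

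Markers of CA3 pyramidal cells rose. All 6 CA3 markers were higher at day 14 (background 5.53%), with a median of 2.28, and 5 or 6 were called with any 1 mouse left out. Cpne4 lay at 4.19, 5.06, 2.98 and 0.77 and then at 2.21, 7.29, 7.04 and 6.71 (log2 fold change 2.71, SE 0.59, adjusted p = 0.000648). Mouse 27 lay among the mice of day 7. Elavl2, an RNA-binding protein, was the CA3 marker with separate days (1.94, SE 0.35), and its rise exceeded that in saline mice by 2.26, which passed the test. Summed over the 6 markers, day 7 mice held 91.7, 117.6, 65.6 and 24.8 CPM and day 14 mice 56.2, 547.6, 525.1 and 314.2, beside 302.3 to 497.2 in saline mice of day 14. Of 6 CA1 markers 1 was higher, Fibcd1 (1.38), a call lost without mouse 26, 21, 35, 36 or 14 or with the replicate block. Their sums were 196.1, 118.0, 204.2 and 110.1 at day 7 and 105.7, 364.9, 551.1 and 163.0 at day 14. Of 6 thalamic markers 1 was higher, Adarb1, an RNA editing enzyme (0.75), a call lost without mouse 21, and 2 were called without mouse 23 or 26. The background for a higher call is 5.53%, and the median of the thalamic list was -0.31. How much of CA3, CA1 or other tissue was in a dissected piece, and its part in the neuronal results, was not tested.

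Of 12 mature granule cell genes 1 was higher, a share near the background of 5.53%. The median was 0.27 (0.45 without mouse 27) beside 0.20 in saline mice, and the gene called is given next. The gene was Plk5, a polo-like kinase of granule cells, at 3.56, 4.60, 0.34 and 0.12 at day 7 and at 0.93, 5.85, 5.62 and 6.34 at day 14 (log2 fold change 2.32, SE 0.72, adjusted p = 0.00969). The call was lost without mouse 23, 21, 35, 36, 14 or 40 and with the replicate block. Prox1, the factor that fixes granule cell identity, lay at 8.11, 8.30, 6.39 and 7.52 and then at 8.06, 8.02, 7.52 and 8.20, and was not called (0.23, SE 0.26). Mouse 21 was low and the other 7 mice overlapped. Stxbp6, a regulator of vesicle fusion, was not called (1.02, adjusted p = 0.0151), but was without mouse 27 (1.31), 23 or 26. The list had 3 calls without mouse 27, 2 without mouse 26 and 0 without mouse 21, 35, 36, 14 or 40. Its mean over saline, on the log2 scale, was -0.32, -0.24, -2.48 and -2.16 at day 7 and -1.92, -0.45, -0.88 and -0.01 at day 14, so that mice 23 and 26 of day 7 lay with mice 36, 14 and 40 of day 14.

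Of 12 genes of immature neurons 0 were called by edgeR or DESeq2, with 4 higher and 1 lower at an unadjusted p under 0.05 and a median of 0.37. With mouse 23, 27 or 26 left out, 1, 2 or 3 were called, and 1, Neurod1, with the replicate block. Dcx, doublecortin of migrating neurons, lay at 4.38, 4.46, 3.19 and 4.19 and then at 2.41, 5.42, 5.28 and 5.05. Mouse 27 was the lowest of all 8 and the other 3 were above all of day 7 and above saline mice of day 14, at 4.81 to 5.01 (log2 fold change 0.77, SE 0.29, adjusted p = 0.0283, and 1.12 with a call without mouse 27). Neurod1, a factor of young granule neurons, was at 4.92 in mouse 27, beside the other mice of day 14 at 4.80 to 5.06 (0.52, adjusted p = 0.0246), and was called without mouse 26. Sox4, a progenitor factor, had a lower estimate (-0.65, adjusted p = 0.0221), and was called without mouse 23 or 26. Reln, the matrix protein reelin of hilar interneurons, was not called (-0.18, SE 0.19).

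Signalling lists fell in part. Of 30 Wnt pathway genes 7 were lower (background 11.6%) and 0 higher, with a median of -0.41. The number was 13 without mouse 27 and 12 without mouse 23. The receptors Lrp5 and Fzd1 fell by 1.27 and 1.24, and Tcf7l1, a nuclear effector, by 1.26, with all 3 calls kept with any 1 mouse left out. Lrp5 lay at 4.68, 4.97, 5.96 and 5.88 and then at 5.21, 3.32, 3.67 and 3.84, with mouse 27 inside the range of day 7. Ctnnb1, beta-catenin, the transducer of the canonical pathway, lay at 9.44, 9.29, 9.23 and 9.37 and then at 9.52, 8.94, 8.85 and 8.90, a difference of -0.25 on the log2 scale (SE 0.10, adjusted p = 0.0311), under the fold required, and -0.44 without mouse 27. The feedback target Axin2 was not called (0.17). Of 13 genes of TGF-beta and activin signalling 6 were lower (background 11.6%) with a median of -0.89 (-1.37 without mouse 27). The number was 3 without mouse 35, 36, 14 or 40 and 1 without mouse 21. Tgfbi, a matrix target of the pathway, fell by 2.07 (3.30 without mouse 27), a call lost without mouse 21, and Ltbp1, which binds the latent ligand, by 1.22 (2.00 without mouse 27). Of 12 targets of p53 6 were lower (background 11.6%) with a median of -0.75. The number was 3 without mouse 21, 35, 36, 14 or 40 and 9 without mouse 27. Cdkn1a, the cell cycle inhibitor p21, lay at 3.86, 5.13, 5.71 and 5.71 and then at 4.64, 2.23, 1.84 and 2.74 (log2 fold change -1.96, SE 0.40, adjusted p = 0.000438, and -2.97 without mouse 27).

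In 4 more lists 0 members were called by edgeR. Of 18 genes of the respiratory chain, 5 were higher and 0 lower at an unadjusted p under 0.05, with a median of 0.12 (0.02 without mouse 27). Cox4i1, a subunit of cytochrome oxidase, had a log2 fold change of 0.07 (SE 0.07), and Ndufa5, a subunit of complex I, had 0.37 (SE 0.10, adjusted p = 0.00315), below the fold required. Of 17 genes of cholesterol synthesis, 1 was higher and 1 lower at an unadjusted p under 0.05, with a median of -0.03 and 1 call without mouse 27. The 5 blood genes had 0 at that level, and the 6 choroid plexus genes tested had 1, with 1 call by DESeq2 and 1 each without mouse 23 or 27. DESeq2 called 0 in the other 3 lists.

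At day 14 kainate mice still differed from saline mice in the EZ, and most of these calls rested on mouse 27. With mouse 27, 496 genes were higher than saline (2.32%) and 8 lower (0.0374%). Without it 3 genes were called, each higher (0.0138% of 21712). These were Cst7 (chromosome 2, 150412284 to 150420864), C3 (chromosome 17, 57510964 to 57535155) and Clec7a (chromosome 6, 129438554 to 129449742), 2 microglial genes and a complement gene. Cst7 lay at 3.04, 3.43 and 5.26 in mice 36, 14 and 40 and at 0.56, 0.76, 1.32 and -0.27 in saline mice (log2 fold change 3.63, SE 0.49, adjusted p = 0.000114). C3 lay at 2.51, 2.39 and 2.68 against 0.24, -0.64, 0.39 and -1.04 (2.79, SE 0.39, adjusted p = 0.000139), and Clec7a at 2.89, 3.33 and 4.40 against 0.79, 1.16, 0.93 and 0.23 (2.94, SE 0.48, adjusted p = 0.00229). The kainate and saline values did not overlap for any of the 3. Other immune and astrocyte genes had higher estimates without mouse 27 but did not pass, among them Gfap (1.08, adjusted p = 0.316), Cxcl10 (2.67, adjusted p = 0.248) and B2m (0.90, adjusted p = 0.328). The list medians against saline without mouse 27 were 1.11 for interferon response, 1.01 for disease-associated microglia and 0.62 for reactive astrocytes, and -0.01 for DNA replication, -0.02 for synaptic vesicle release and 0.17 for CA3 markers. Cck had a log2 difference from saline of -0.09 with mouse 27 and -0.21 without it.

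The same days on the other side and in saline mice are set beside these values. In kainate PIZ the median log2 fold changes were -1.55 for interferon response, -1.08 for complement, -1.64 for cytokines and chemokines, -0.85 for MHC class I and -0.64 for reactive astrocytes, while those for DNA replication, matrix and synaptic vesicle release were -0.06, -0.15 and 0.04. The cytokine median was about as low in PIZ as in EZ with mouse 27 (-1.61). Without the EZ library of mouse 27 the EZ median was -3.14. In saline EZ the same lists had -0.47, -0.12, -0.59, -0.06, -0.09, 0.05, 0.15 and -0.11. The 1 gene called in PIZ is in none of these lists. The lists' difference between sides was not tested, and at the level of genes it passed for Cck alone, and for 0 genes with mouse as a block.

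**Figure D5:**
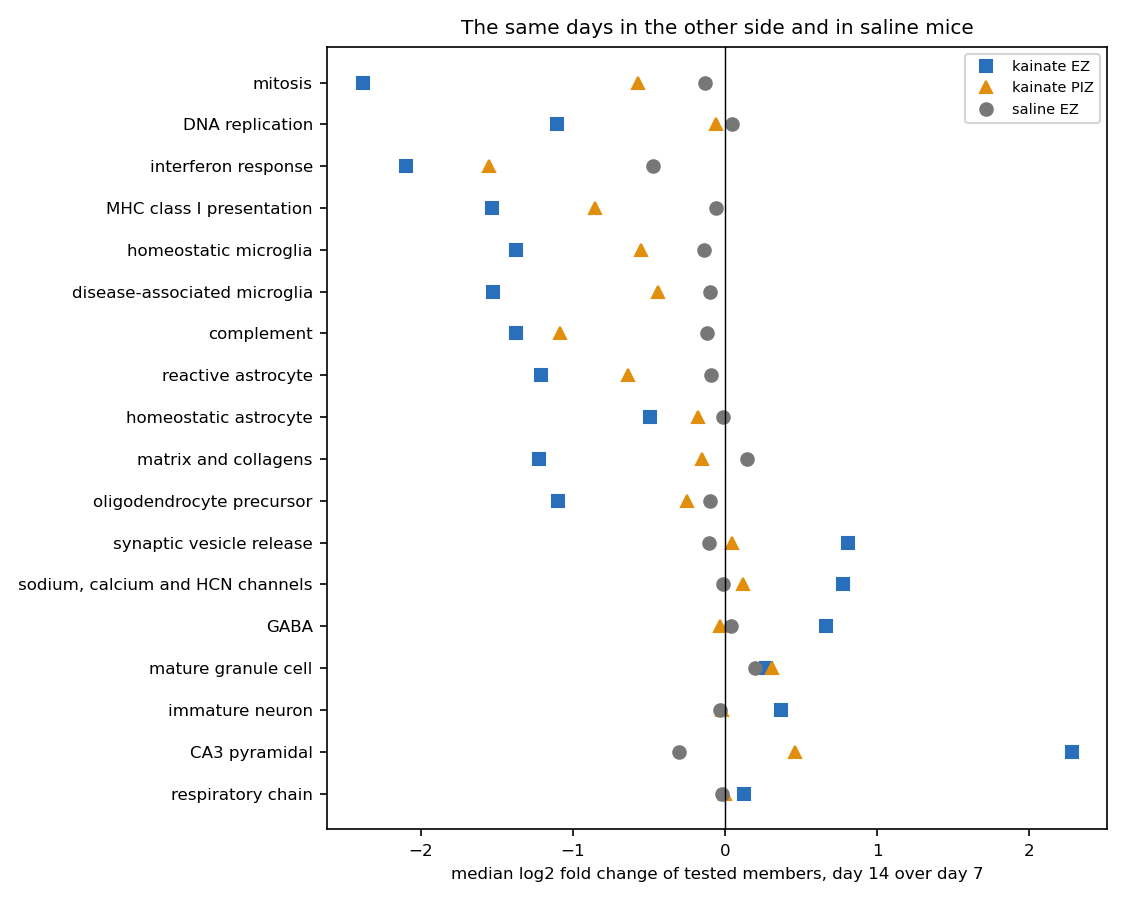
Median log2 fold change from day 7 to day 14 (horizontal axis) of the tested members of 18 gene lists in kainate EZ (blue squares), kainate PIZ (orange triangles) and saline EZ (grey circles). The interferon response list has a median of -2.09 in EZ, -1.55 in PIZ and -0.47 in saline mice, and the mitosis list -2.38, -0.57 and -0.13.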

How the data were processed

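Dentate gyrus RNA of 48 libraries was sequenced from stranded mRNA libraries. Per the labels and methods, the authors trimmed reads with fastp 0.20.1, aligned them to GRCm39 with HISAT2 2.2.1 and deposited raw counts per gene from featureCounts (Subread 1.6.4), with strand used, multimapping reads counted at their primary alignment and overlapping genes allowed. Here the deposited counts were filtered by expression over the 12 groups, leaving 21390 genes with 99.92% of counts, and tested with edgeR 4.0.16 (TMM scaling, quasi-likelihood test, Benjamini-Hochberg adjustment) in R 4.3.3. A DEG had to pass an adjusted p of 0.01 and a 1.5-fold change. SE is the log2 fold change divided by the root of F. The procedure was tested on simulated data with the same spread per gene in every group and no library that stands apart. That simulation thus does not cover the larger spread among the kainate EZ mice.

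The comparison, whose mice follow from the labels, its members and the gene lists were chosen with earlier results of these data known. Named genes are the 10 higher and 10 lower DEG with the smallest p, in each list the 3 members with the smallest p and the most abundant member, the genes leading the tests of a difference, and Cck, Vsnl1, Hmcn2, Myo10 and Reln. Some items that this rule names are not reported here. Other members named in the text were chosen after their values were seen. Positions are of GRCm39. DESeq2 1.42.0, limma 3.58.1, other scalings, filters, thresholds and sets of libraries, and each mouse left out, were alternatives.

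EZ and PIZ libraries carry mouse numbers, so both sides of a mouse are paired. The correlation of their deviations from group means was 0.00759 to 0.25 at day 7 and 0.188 to 0.349 at day 14. The groups compared between days share no mouse. Nothing in the sources used here ties a library to a collection batch.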

Additional observations from a re-analysis of the deposited data

Results flagged for a closer look

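In groups of 4 libraries, a library was singled out where its gap to the nearest other library, divided by the range of the group, exceeded Dixon's 95% value. Of 288 groups looked at, 41 met this, 29 for genes and 12 for gene lists, where chance gives about 5% for a single group. The groups are genes and lists read in the same libraries, and many genes were chosen by the smallest p in this comparison. They are thus not independent, and the share that met the rule cannot be set against 5%. All 41 were at day 14 and 0 at day 7, and the library was mouse 27 in 37 of them. The other 4 were mouse 40 for Frmpd4 (ratio 0.875), Cplx1 (0.886) and the myelin list (0.909) and mouse 36 for Hmcn2 (0.857).

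For mouse 27, the ratios of immune and microglial genes were 0.831 for B2m, 0.957 for Cfb, 0.878 for Tmem119, 0.966 for Sall1, 0.870 for Ifit2, 0.857 for Irgm1 and 0.878 for Iigp1. Those of dividing cells were 0.989 for Tpx2, 0.835 for Cenpf and 0.867 for Mki67. Matrix, vascular and signalling genes had 0.862 for Ncan, 0.925 for Fn1, 0.831 for Vcan, 0.902 for Mfsd2a, 0.878 for Cdh5, 0.916 for Tgfbi, 0.939 for Ltbp1 and 0.866 for Ctnnb1. In each of these genes mouse 27 was the highest of day 14. Among neuronal genes, mouse 27 was the highest for Kcnip4 (0.864) and the lowest for Camk2a (0.966), Lhx6 (0.959), Kcnc1 (0.919), Cacna1e (0.941), Plk5 (0.867), Dcx (0.877) and Cpne4 (0.886).

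The list means over saline gave 0.865 for homeostatic microglia, 0.862 for interferon response, 0.878 for interferon-inducible GTPases, 0.835 for reactive astrocytes, 0.956 for matrix, 0.948 for p53 targets, 0.937 for neuropeptides, 0.884 for TGF-beta and activin and 0.897 for the respiratory chain, with mouse 27 the highest. Mouse 27 was the lowest for immature neurons (0.871) and potassium channels (0.834).

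The change from day 7 to day 14 differed between groups by a test of the difference (edgeR) for 17 of the named genes. In EZ 1 gene in all passed without any one of 9 single mice, and 0 passed in a model of the compared libraries alone. In EZ, the change of kainate mice minus that of saline mice was 2.04 (log2) for Cck, 1.55 for Vsnl1, 1.41 for Scn1a, 1.41 for Frmpd4, 1.06 for Bend6, 1.16 for Snrpn, 1.07 for Fgf12, 0.75 for Peg13, 1.55 for Zfp385b, 1.41 for Snap25 and 2.26 for Elavl2. It was -2.43 for Hmcn2, -1.31 for Aldh1l1, -1.91 for Tcf19, -0.76 for Myo10, -1.0 for Ncan and -2.10 for Aurka. For Cck the change in EZ minus that in PIZ of the same mice was 1.79, which did not pass with mouse as a block.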

How the results depend on the processing

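The number of DEG between the days kept within 1.5 times 3674 under RLE scaling, library size scaling, other filters on low counts, DESeq2 and an adjusted p under 0.05. It was 7100 with limma-voom quality weights, 537 in a model of the 24 EZ libraries and 158 against a fold of 1.5 (glmTreat). In a model of the 8 libraries alone it was 0, with 452 without mouse 27, 0 without mouse 23 and 108 by DESeq2, the last 3 chosen after seeing the data. Leaving out 1 mouse gave 1181 to 6236. With the replicate block (correlation within a mouse 0.163) it was 3827, of which 3206 were shared. The cause of these differences was not tested. In PIZ DESeq2 called 4 genes. The difference of kainate and saline changes gave 898 genes by DESeq2, 0 in a model of those libraries alone and 1 to 4108 with 1 mouse left out. The difference between sides gave 45 by DESeq2, 0 in a model of those libraries alone, 0 with the replicate block of mouse and 1 to 1889 with 1 mouse left out, with 213 without mouse 23. Among named genes the block ended 8 calls, made 3 and changed 1 sign. Saline mice gave 0 genes in every setting tried.

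Slc1a2, at -0.03 and not called, changed sign to 0.0033 without a filter, 0.28 with quality weights, 0.0028 in the 24 EZ libraries and 0.012 with the replicate block, to 0.032, 0.21 and 0.0018 in the 8 libraries without mouse 27, without mouse 23 and by DESeq2, and ranged from -0.17 to 0.15 with 1 mouse left out. With 1 mouse left out Prox1 ranged from -0.041 to 0.47 and Reln from -0.29 to 0.0051. The counts carry no measure of tissue composition, and 4 mice a day limit what can be called.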
